A study of Mus musculus with 8 samples.

Results

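The contact profile of Cdx4 was followed across 4 edited X-inactivation centre (Xic) alleles. The profile was made of all X-chromosomal 5C primer pairs in which at least 1 restriction fragment overlapped Cdx4 with 5 kb on each side (chrX:100511737-100530931, mm9) and the other lay up to 700 kb away. This rule, which used no measured value, took 646 of 269808 primer pairs, or 0.239%. Of these, 623 were used and 23 were left out, because a primer was far from the median coverage of its type or its fragment was edited in some allele. Among the pairs used, 156 had a count in all 8 libraries and 5 had a count in none.

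5C (carbon-copy chromosome conformation capture) counts ligation products between restriction fragments with a pool of forward and reverse primers, and each primer pair gives 1 contact count. The cells were undifferentiated (day 0) male mouse embryonic stem cells of the E14 line (XY, 129/Ola), which carry a single X chromosome, so that each count comes from the edited allele alone. Each allele was measured in 2 libraries. In 245kb-INV, 245 kb of the Tsix-TAD (topologically associating domain) are inverted, from the left end of Linx to a point between Tsx and Xite. In Linx-51kb-INV, 51 kb within Linx are inverted. In Chic1-4kbD and Chic1-14kbD, 4 kb and 14 kb of Chic1 are deleted. The study's figure legends describe its maps as 2 pooled clones for each of the first 3 alleles, and as 2 pooled replicates of 1 clone for Chic1-14kbD. The labels do not tie a library to a clone, so the spread between libraries may be technical, above all in Chic1-14kbD. No library of the unedited line was analysed here. The 4 Chic1 deletion libraries served as the comparison group for both inversions, and they are not unedited controls. A difference from them cannot be told apart from an effect of losing Chic1 sequence.

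Cdx4 encodes a caudal-type homeobox transcription factor that acts upstream of Hox genes in posterior patterning and in embryonic blood formation. In the Xic it lies in the Tsix-TAD, between the noncoding Linx locus and Chic1. A TAD is a stretch of chromosome whose sequences contact each other more often than sequences outside it. The protein CTCF marks many TAD borders, and pairs of its sites that point toward each other tend to form loops. Linx, Chic1 and Xite, an enhancer of Tsix, are the loci of this TAD with clusters of such sites.

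The gene (ENSMUSG00000031326.2, plus strand, chrX:100516737-100525931) has 3 exons and was read through 5 fragments. FOR 532 (chrX:100507159-100516663) holds the sequence upstream of the gene. REV 533 (chrX:100516664-100519545) holds the transcription start and exon 1. FOR 534 (chrX:100519546-100519681) is a piece of intron 1 that is 136 bp long. REV 535 (chrX:100519682-100525211) holds exon 2 and the first part of exon 3. FOR 536 (chrX:100525212-100536803) holds the end of exon 3 and the sequence downstream. The cutter, HindIII, reads AAGCTT, and all 1039 X-chromosomal fragments began within such a site. One of these sites starts 76 bases before the Cdx4 transcription start, so the upstream sequence and the transcription start are read by different primers. The 250 bases before the start (plus strand, mm9), with the HindIII site in capitals, show where this split falls.
Cdx4 promoter, chrX:100516487-100516736: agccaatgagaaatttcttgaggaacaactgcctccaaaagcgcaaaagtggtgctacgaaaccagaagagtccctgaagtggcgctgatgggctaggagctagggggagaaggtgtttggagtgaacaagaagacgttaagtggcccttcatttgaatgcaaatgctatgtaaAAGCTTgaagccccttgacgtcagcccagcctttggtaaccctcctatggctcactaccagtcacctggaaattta

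The intronic fragment is shown whole, with both of its HindIII sites in capitals, because it is by far the shortest of the 5. Pairs with it still held between 21.7% and 28.6% of the counts of all 646 Cdx4 pairs. A pair with both fragments in the window counts for each of them, so the shares of the 5 fragments overlap.
FOR 534 with its sites, chrX:100519543-100519684: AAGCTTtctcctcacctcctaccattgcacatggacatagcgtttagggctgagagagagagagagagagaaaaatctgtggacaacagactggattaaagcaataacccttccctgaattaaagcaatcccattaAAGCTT

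The partner fragments below gave the most counts with Cdx4 in the Tsx side and in the left part of Linx, where the results turned. Each line gives 60 bases around the site at the fragment's left end (plus strand, mm9), with the HindIII site in capitals.
Tsx side, FOR 558, chrX:100592154-100592213: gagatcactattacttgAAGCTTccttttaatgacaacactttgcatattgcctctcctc
Tsx side, REV 564, chrX:100602358-100602417: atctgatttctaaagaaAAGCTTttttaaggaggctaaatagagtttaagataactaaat
Tsx side, REV 568, chrX:100611164-100611223: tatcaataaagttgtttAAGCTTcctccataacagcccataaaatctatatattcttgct
Linx left part, REV 509, chrX:100417491-100417550: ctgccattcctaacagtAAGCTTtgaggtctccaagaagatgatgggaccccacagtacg
Linx left part, REV 514, chrX:100439199-100439258: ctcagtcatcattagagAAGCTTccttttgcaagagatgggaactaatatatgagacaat

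The core of the CTCF motif was searched on both strands of every fragment. It occurred in 64 of 1039 fragments, or 6.16%, and in 1 of the 5 Cdx4 fragments, FOR 536, on the plus strand. The Cdx4 fragments have a median length of 5530 bp against 2021 bp for all, so these shares are not for equal lengths. The 13 fragments over Chic1, a locus with a cluster of CTCF sites, held 0 matches on either strand. A fragment without a match may therefore lie at a locus with CTCF sites. The matches describe letters only and do not show binding.

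In the reference order Cdx4 lies 139.4 kb from the left breakpoint of the 245 kb inversion and 96.1 kb from the right one. The inversion swaps these distances and moves the gene by 43.3 kb. Distances between Cdx4 and other sequences of the inverted interval, such as Linx, Chic1 and Tsx, do not change. Contact levels are therefore given as the log2 of the observed count over the count expected at that distance in the same library, with positions corrected for each allele. A value of 0 is the average level for the distance.

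Library totals ranged from 1614282 to 21046109 counts. The Cdx4 pairs took 87910 and 116239 counts in the 2 245kb-INV libraries, 65892 and 73340 in Linx-51kb-INV, 63886 and 46714 in Chic1-4kbD, and 151024 and 12877 in Chic1-14kbD. As a share of the library total this was 0.521% and 0.555% in 245kb-INV, 0.572% and 0.532% in Linx-51kb-INV, 0.607% and 0.571% in Chic1-4kbD, and 0.718% and 0.798% in Chic1-14kbD. By share Chic1-14kbD stood above the other 3 alleles, whose neighbouring ranges overlapped. Against the expected count the order closed up. The log2 level of all Cdx4 contacts was 0.00 and 0.08 in 245kb-INV, 0.16 and 0.14 in Linx-51kb-INV, 0.24 and 0.15 in Chic1-4kbD, and 0.13 and 0.31 in Chic1-14kbD. The 2 245kb-INV libraries were the lowest, and the ranges of the other 3 alleles overlapped. The summed contact of Cdx4 passed the test in none of the 4 comparisons, with adjusted p between 0.475 and 0.938 (edgeR quasi-likelihood test). Counts of PCR products without molecular identifiers are not independent molecules, so depth bounds counting error only.

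The counts were concentrated on few pairs. The 10 most counted Cdx4 pairs held between 29% and 39.8% of the Cdx4 counts of a library. Outside the window the pair with the highest mean share in every allele was FOR 536 with REV 537, the adjacent fragment downstream of Cdx4. It had 3918 and 7056 counts in 245kb-INV, 3939 and 3517 in Linx-51kb-INV, 3032 and 2020 in Chic1-4kbD, and 6501 and 663 in Chic1-14kbD. Within the window the leading pair was FOR 534 with REV 535 in 3 alleles and FOR 534 with REV 533 in Chic1-14kbD. Coverage was also uneven, since 245kb-INV replicate 2 had the second highest total but a count in only 340 of the 623 pairs, the fewest of any library, against 587 in Chic1-14kbD replicate 1.

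Partners were summed into 10 regions along the chromosome. The Xite side, from the right breakpoint to Xist (chrX:100623271-100656352), was the partner with the highest level in all 8 libraries. Its log2 level was 0.66 and 1.11 in 245kb-INV, 0.89 and 1.48 in Linx-51kb-INV, 1.11 and 0.69 in Chic1-4kbD, and 0.83 and 1.11 in Chic1-14kbD. All 4 alleles overlapped. When the most counted primer pair of each region was left out, it was highest in 4 libraries, and the fragment beside the Linx promoter was highest in the other 4. Levels of different regions also rest on different primers, and after division by primer efficiency the Xite side was highest in 6 libraries. Its high level was not shared by all 5 Cdx4 fragments. With the Xite side, REV 535 was between 1.23 and 3.13 and FOR 532 between 0.27 and 1.70. FOR 534 was between -0.31 and 0.79, and FOR 536 between -0.27 and 1.16. REV 533, with the transcription start, was at 0.69 and 0.63 in Chic1-14kbD and between -1.47 and -0.04 in the other alleles. Chic1, which lies between Cdx4 and the Xite side in the reference order, was above the expected level in 8 of 8 libraries, from 0.17 to 0.57. Fragments deleted in either Chic1 deletion were left out of this region in every library. By fragment, the level with Chic1 was between 0.82 and 1.37 in FOR 532 and between -0.09 and 1.03 in REV 535. It was between -0.11 and 0.30 in FOR 534, -0.58 and 0.30 in FOR 536, and -0.92 and 0.13 in REV 533. The upstream flank, the 75 kb left of the inversion, had the lowest level in 6 libraries and was between -1.92 and -0.76.

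**Figure D1:**
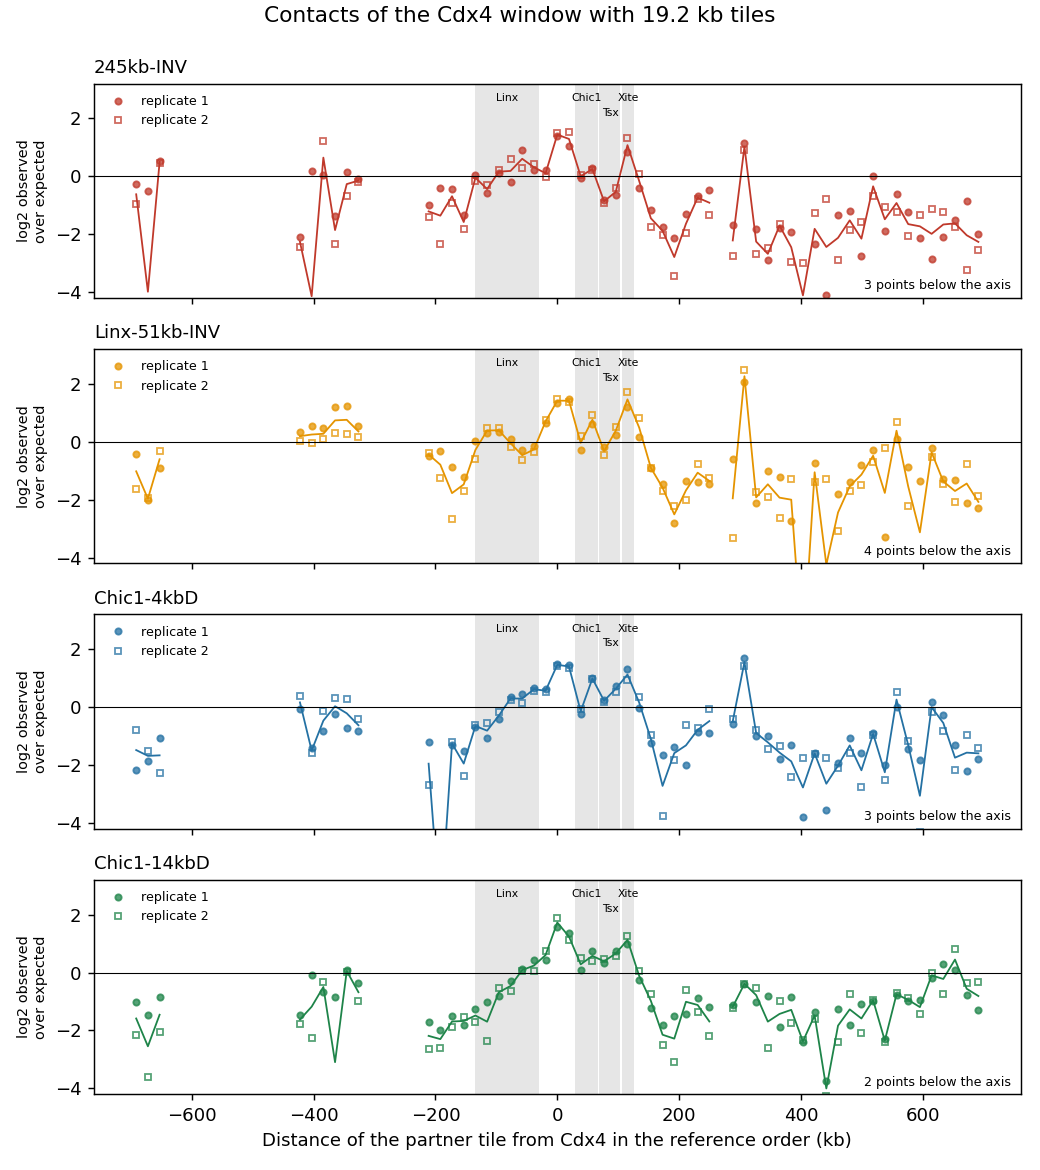
Level of Cdx4 contacts (log2 observed over expected count) with each 19195 bp tile within 700 kb, against the distance of the tile from Cdx4 in the reference order, for the 4 alleles. Filled circles and open squares are the 2 libraries, lines are their mean, and grey bands mark the approximate positions of Linx, Chic1, Tsx and Xite; in 245kb-INV the points over Tsx lie below 0, whereas in both Chic1 deletions they lie above it.

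The main difference lay in the Tsx side, the part of the inverted interval between Chic1 and the right breakpoint (chrX:100592174-100618972), which holds most of Tsx, a gene named for its expression in testis. Cdx4 contacted this segment less in 245kb-INV than in the Chic1 deletions. The summed counts over 30 primer pairs were 3783 and 4807 in 245kb-INV, 3814 and 4458 in Linx-51kb-INV, 5488 and 4041 in Chic1-4kbD, and 17385 and 1325 in Chic1-14kbD. The log2 level was -0.88 and -0.83 in 245kb-INV, -0.09 and -0.04 in Linx-51kb-INV, 0.44 and 0.32 in Chic1-4kbD, and 0.47 and 0.55 in Chic1-14kbD. The 3 groups of libraries did not overlap, with 245kb-INV lowest, Linx-51kb-INV between and both deletions highest. The fitted log2 change of 245kb-INV against the deletions was -1.30 ± 0.14 (SE; adjusted p = 0.000144, edgeR quasi-likelihood test with Benjamini-Hochberg adjustment over all features). All 30 primer pairs of this region had a lower mean level in 245kb-INV than in the deletions. Pairs that share a fragment are not independent, so this count is a description.

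This difference kept its direction and its call in all 22 alternatives run, with log2 changes between -1.5 (library-size scaling) and -1.24. Against Chic1-4kbD alone it was -1.24 (adjusted p = 0.00209), and against Chic1-14kbD alone -1.36 (adjusted p = 0.000122). Every alternative used deletion libraries as the comparison group. The paper reports raised Cdx4 expression in these deletions, significant only in the larger one, at some time points. It proposes that CTCF sites in Chic1 could shield Cdx4 from activating influences that lie downstream. In the reference order the Tsx side lies downstream of Chic1. Whether the deletions raise contact of Cdx4 with the Tsx side was not tested, because no unedited library was analysed. The library names carry prefixes that differ between 245kb-INV and both deletions, so a batch, if the prefixes mark one, cannot be told apart from the allele here. In Linx-51kb-INV the Tsx side was 0.51 lower than in the deletions on the log2 scale, and this did not pass (log2 change -0.51 ± 0.14 SE, adjusted p = 0.0798). It passed with library-size scaling (-0.97, adjusted p = 0.0046), with reference positions (-0.68, adjusted p = 0.0164), with DESeq2 (-0.51, adjusted p = 0.00301) and against Chic1-14kbD alone (-0.57, adjusted p = 0.0459). Linx-51kb-INV and Chic1-4kbD share a name prefix, and between them the change was -0.45 (adjusted p = 0.668). The inversions themselves differed at the Tsx side by -0.79 ± 0.16 (SE; 245kb-INV against Linx-51kb-INV, adjusted p = 0.0452). This last call was lost when any 1 library of 245kb-INV, Linx-51kb-INV or Chic1-4kbD was left out, with log2 changes between -0.81 and -0.76 and adjusted p between 0.0854 and 0.224, so it rests close to the threshold.

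**Figure D2:**
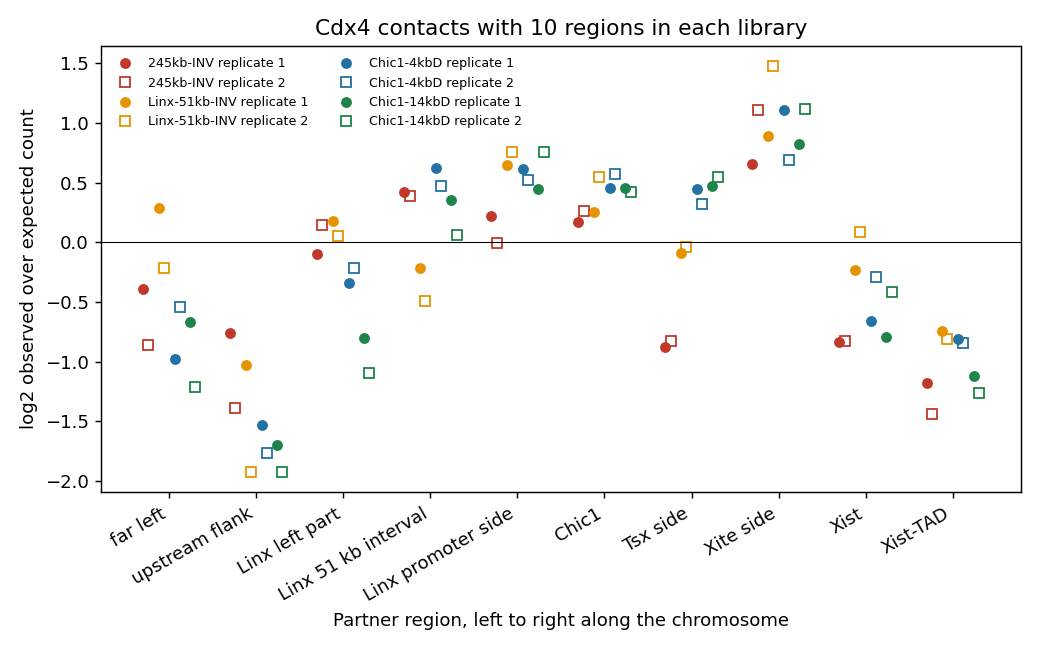
Level of Cdx4 contacts (log2 observed over expected count) with 10 partner regions, ordered from left to right along the chromosome, in each of the 8 libraries. Colours are alleles and symbols are replicates; at the Tsx side both 245kb-INV libraries lie below -0.8, both Linx-51kb-INV libraries just below 0 and the 4 deletion libraries above 0.3.

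The 5 Cdx4 fragments were then read one by one against the Tsx side, without a test. In FOR 532, upstream of the gene, the level was -0.17 and -0.08 in 245kb-INV and between 0.90 and 1.34 in the deletions. In REV 533, with the transcription start, it was -1.53 and -2.10 in 245kb-INV, -0.46 and -0.88 in Chic1-4kbD, and 0.58 and 0.83 in Chic1-14kbD. In the other 3 fragments both 245kb-INV libraries were also below all 4 deletion libraries, so that the groups did not overlap in any of the 5. The Linx-51kb-INV libraries were not placed alike. They lay below every deletion library in FOR 532, REV 533 and REV 535, and overlapped them in FOR 534 and FOR 536.

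**Figure D3:**
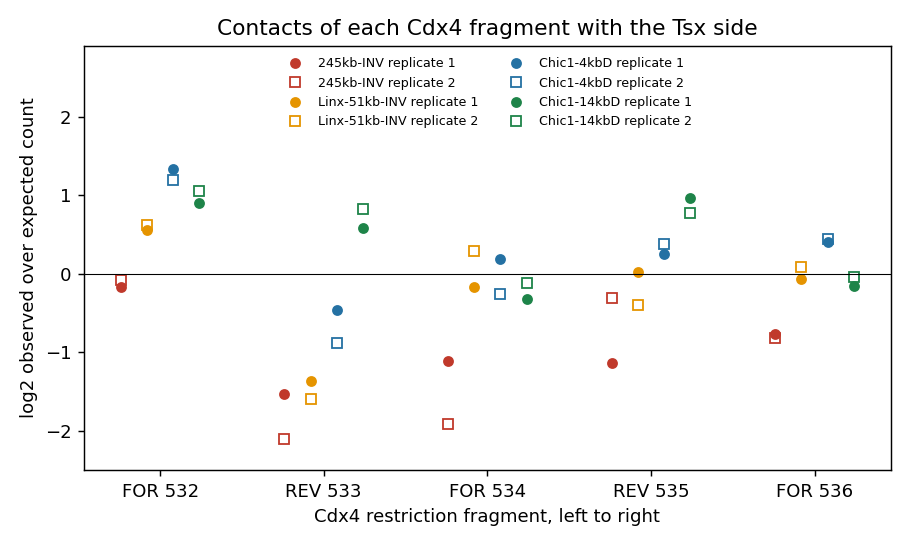
Level of contacts (log2 observed over expected count) between each of the 5 Cdx4 fragments and the Tsx side, in each library. Colours are alleles and symbols are replicates; both 245kb-INV libraries are below the 4 Chic1 deletion libraries in every fragment, and the 2 Chic1 deletions are themselves far apart in REV 533.

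The profile was also read at finer scale with tiles of 19195 bp, the width of the Cdx4 window. Of 59 tiles paired with Cdx4, 56 passed the minimum mean count of 50. Among them 3 passed between 245kb-INV and the deletions, where 1.29% of all 6583 tile pairs tested passed, and 2 of the 3 were lower in 245kb-INV, against 0.471% of all tile pairs. These were the tiles centred 76.8 kb downstream of the gene (log2 change -1.17 ± 0.16 SE, adjusted p = 0.001) and 96 kb downstream (-1.18 ± 0.19 SE, adjusted p = 0.00503). The first reaches from the end of Chic1 into the Tsx side. The second covers Tsx and runs past the right breakpoint into the Xite side, so it also holds sequence whose distance to Cdx4 changes in 245kb-INV. In the first the log2 level was -0.82 and -0.90 in 245kb-INV and between 0.19 and 0.46 in the deletions. In the second it was -0.66 and -0.41 against 0.52 to 0.75. By gene, the window of Tsx, with 13 pairs, changed by -1.40 ± 0.20 (SE, adjusted p = 0.00124), and 13 of its 13 pairs had the lower mean in 245kb-INV.

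On the other side of Cdx4, contacts with the left part of Linx (chrX:100378306-100453761) were higher in both inversions. The counts over 50 primer pairs were 9001 and 13124 in 245kb-INV, 6392 and 6592 in Linx-51kb-INV, 4299 and 3734 in Chic1-4kbD, and 8568 and 488 in Chic1-14kbD. The log2 level was -0.10 and 0.15 in 245kb-INV, 0.18 and 0.05 in Linx-51kb-INV, -0.34 and -0.22 in Chic1-4kbD, and -0.80 and -1.09 in Chic1-14kbD. All 4 inversion libraries lay above all 4 deletion libraries, and the deletions were themselves apart. Against the deletions the log2 change was 0.64 ± 0.14 in 245kb-INV (SE, adjusted p = 0.0407, edgeR) and 0.72 ± 0.14 in Linx-51kb-INV (SE, adjusted p = 0.0138). These comparisons share their 4 deletion libraries.

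The size of both changes depended on which deletion was used. Against Chic1-14kbD alone they were 0.97 (adjusted p = 0.00522) and 1.05 (adjusted p = 0.00197), and against Chic1-4kbD alone 0.31 (adjusted p = 0.808) and 0.39 (adjusted p = 0.852). Chic1-14kbD was lower than Chic1-4kbD by a log2 change of -0.66 ± 0.17 (SE), which did not pass (adjusted p = 0.0677). For 245kb-INV the call was lost without 245kb-INV replicate 2 (0.51, adjusted p = 0.397), without either Linx-51kb-INV library (0.64, adjusted p = 0.0718 and 0.0708), without Chic1-4kbD replicate 1 (0.61, adjusted p = 0.191) or 2 (0.67, adjusted p = 0.156), or without Chic1-14kbD replicate 2 (0.57, adjusted p = 0.0877). For Linx-51kb-INV it was lost without either of its own libraries (0.66 and 0.78, adjusted p = 0.147 and 0.093) and without either Chic1-4kbD library (0.69 and 0.75, adjusted p = 0.0947 and 0.076).

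Within the left part of Linx, 1 tile was higher with Cdx4 in 245kb-INV than in the deletions, against 0.82% of all tile pairs. It was the outermost tile, 134.4 kb upstream of Cdx4, which holds Nap1l2, a gene that encodes a nucleosome assembly protein. Its log2 level was 0.06 and -0.15 in 245kb-INV and between -1.69 and -0.61 in the deletions, and its log2 change was 1.01 ± 0.23 (SE, adjusted p = 0.0415). The call was lost without any 1 library of 245kb-INV or Chic1-4kbD or without Chic1-14kbD replicate 2, with adjusted p between 0.132 and 0.174, and without its most counted primer pair (0.92, adjusted p = 0.0663). The window of Nap1l2 itself changed by 0.99 ± 0.29 (SE) and did not pass (adjusted p = 0.16).

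Between Linx-51kb-INV and the deletions 4 Cdx4 tiles passed, where 1.88% of all tile pairs did. Of these 3 were higher in Linx-51kb-INV, against 1.44% of all tile pairs, and 2 of them were in the left part of Linx. These tiles, 115.2 kb and 96 kb upstream of Cdx4, changed by 1.52 ± 0.31 (SE, adjusted p = 0.0157) and 0.89 ± 0.20 (SE, adjusted p = 0.0286). In the first the level was 0.31 and 0.46 in Linx-51kb-INV and between -2.37 and -0.55 in the deletions. In the second it was 0.33 and 0.46 against -0.82 to -0.17. Both calls were lost without any 1 library of Linx-51kb-INV or Chic1-4kbD (adjusted p between 0.0625 and 0.219), and the second also without Chic1-14kbD replicate 1 (adjusted p = 0.0725). Without the most counted primer pair of each tile they were 1.15 (adjusted p = 0.101) and 0.89 (adjusted p = 0.0569). The third tile is described below with Zcchc13.

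The inverted 51 kb of Linx (chrX:100454927-100496034 in the fragments used) showed the opposite. Cdx4 contacts with it were lower in Linx-51kb-INV, whose nearer breakpoint lies about 12 kb from the gene. The edges of this inversion were read from the study's figures and are approximate. The counts over 22 primer pairs were 13542 and 16752 in 245kb-INV, 7341 and 6239 in Linx-51kb-INV, 9057 and 6160 in Chic1-4kbD, and 18977 and 1269 in Chic1-14kbD. The log2 level was 0.42 and 0.38 in 245kb-INV, -0.22 and -0.49 in Linx-51kb-INV, 0.62 and 0.47 in Chic1-4kbD, and 0.35 and 0.06 in Chic1-14kbD. Both Linx-51kb-INV libraries were below the other 6. The log2 change was -0.73 ± 0.14 in Linx-51kb-INV (SE, adjusted p = 0.00984) and 0.02 ± 0.13 in 245kb-INV (SE, adjusted p = 0.985).

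This value depends on the correction of positions, because the 51 kb inversion brings some of these fragments nearer to Cdx4 and moves others away. With reference positions the change was -0.32 (adjusted p = 0.331), and with primer efficiencies -0.40 (adjusted p = 0.154). The call was also lost without Linx-51kb-INV replicate 2 (-0.60, adjusted p = 0.195) and without Chic1-4kbD replicate 1 (-0.69, adjusted p = 0.0699) or 2 (-0.77, adjusted p = 0.0533). Between the inversions the difference was 0.75 ± 0.16 (SE) and did not pass (adjusted p = 0.0549). Of the Cdx4 tiles, 1 was lower in Linx-51kb-INV than in the deletions, against 0.441% of all tile pairs. It lay in this interval, 38.4 kb upstream (log2 change -0.70 ± 0.15 SE, adjusted p = 0.0243), with levels of -0.16 and -0.37 against 0.06 to 0.67. It was not called without any 1 library of Linx-51kb-INV or Chic1-4kbD (adjusted p between 0.0945 and 0.27).

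**Figure D4:**
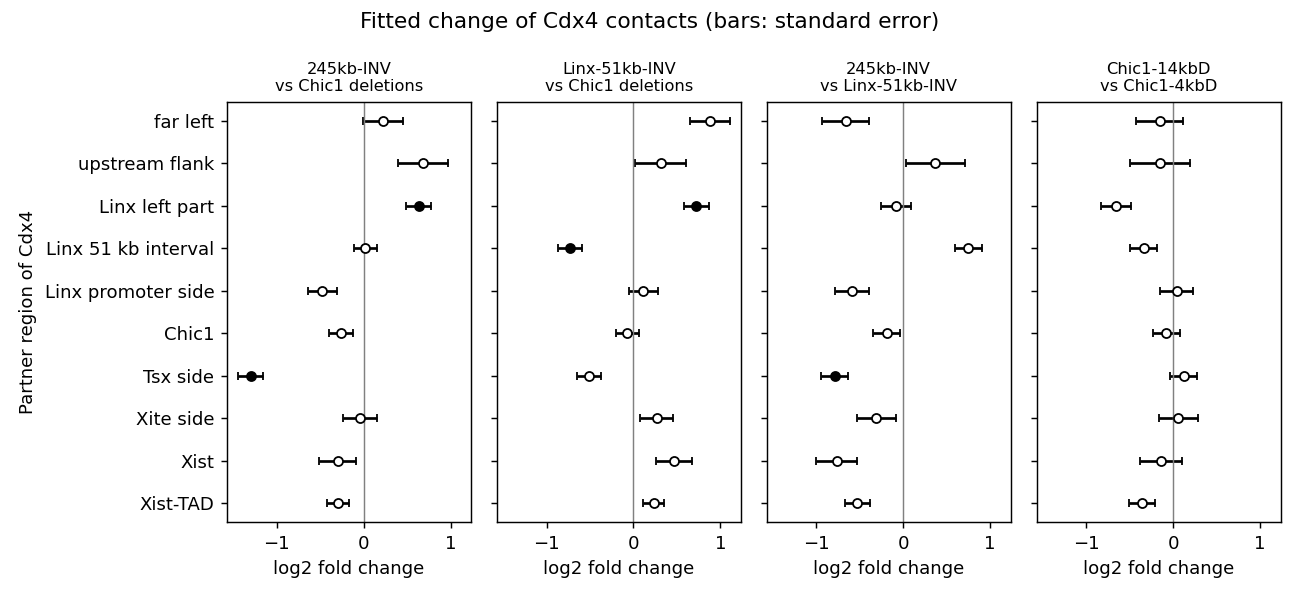
Fitted log2 fold change of Cdx4 contacts with each of the 10 regions in the 4 comparisons, with standard errors from the edgeR fit. Filled points passed an adjusted p of 0.05; these are the Tsx side and the left part of Linx in 245kb-INV, the left part and the 51 kb interval of Linx in Linx-51kb-INV, the Tsx side between the inversions, and none between the Chic1 deletions.

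The remaining regions passed in no comparison. The nearest to the threshold was the far left (chrX:99811256-100303825), in Linx-51kb-INV. Its log2 level was -0.39 and -0.86 in 245kb-INV, 0.29 and -0.22 in Linx-51kb-INV, -0.98 and -0.54 in Chic1-4kbD, and -0.67 and -1.22 in Chic1-14kbD. Both Linx-51kb-INV libraries were above the other 6. The log2 change against the deletions was 0.88 ± 0.23 (SE, adjusted p = 0.0656, edgeR). It passed with primer efficiencies (1.16, adjusted p = 0.0138), DESeq2 (0.88, adjusted p = 0.0118), TMM factors (0.94, adjusted p = 0.0341) and only the compared alleles (0.88, adjusted p = 0.0496), and without 245kb-INV replicate 2 (0.88, adjusted p = 0.0498) or Chic1-14kbD replicate 1 (1.04, adjusted p = 0.0361). Without Linx-51kb-INV replicate 1 it was 0.61 (adjusted p = 0.425).

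At the part of Chic1 that was read, the log2 change was -0.26 ± 0.13 in 245kb-INV and -0.07 ± 0.13 in Linx-51kb-INV (SE, adjusted p = 0.579 and 0.896). The paper places all CTCF sites of Chic1 within the 14 kb deletion, whose fragments were left out in every library. Contacts of Cdx4 with the CTCF cluster of Chic1 itself were therefore not measured. At the fragment beside the Linx promoter, 245kb-INV was at 0.22 and -0.01 and the other 6 libraries between 0.45 and 0.76, with a log2 change of -0.48 ± 0.17 against the deletions that did not pass (SE, adjusted p = 0.292). Xist, the RNA that silences the X chromosome in cis, gave -0.30 ± 0.21 in 245kb-INV and 0.47 ± 0.20 in Linx-51kb-INV (SE, adjusted p = 0.759 and 0.327). The rest of the Xist-TAD gave -0.30 ± 0.13 and 0.23 ± 0.13 (SE, adjusted p = 0.465 and 0.456).

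Because the 245 kb inversion moves Cdx4 toward the upstream flank and away from Xite, both flanks were compared directly. The level with the upstream flank was -0.76 and -1.39 in 245kb-INV, -1.03 and -1.92 in Linx-51kb-INV, -1.53 and -1.77 in Chic1-4kbD, and -1.70 and -1.92 in Chic1-14kbD. The 2 245kb-INV libraries were above all deletion libraries, and the Linx-51kb-INV libraries were on both sides of them. The log2 change of 245kb-INV was 0.68 ± 0.29 (SE) and did not pass (adjusted p = 0.446). At the Xite side it was -0.04 ± 0.19 (SE, adjusted p = 0.979). The log2 ratio of upstream flank to Xite side was 0.71 higher in 245kb-INV than in the deletions, at -1.96 ± 0.77 (SD, n = 2) against -2.67 ± 0.26 (SD, n = 4), with p = 0.267 by exact permutation (two-sided). With 2 libraries against 4 that test cannot go below 0.133. Without correction of positions the difference was 1.41, and without 245kb-INV replicate 1 it was 0.16, against 1.25 without replicate 2. In Linx-51kb-INV the ratio differed from the deletions by 0.01 (exact permutation p = 1).

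The contacts of Cdx4 across the inversion breakpoints were set beside those of its neighbours Linx and Chic1. With the Xite side, the 51 kb Linx interval changed in 245kb-INV by -1.22 ± 0.13 (SE, adjusted p = 8.93e-05) and Chic1 by 1.15 ± 0.11 (SE, adjusted p = 5.47e-05), while Cdx4, between them, gave the -0.04 stated above. Chic1 itself differed between the deletions there, by -0.63 ± 0.13 (SE, Chic1-14kbD against Chic1-4kbD, adjusted p = 0.0175, edgeR). The paper reports that, against the unedited line, Chic1 deletion reduced contacts of Chic1 with Xite and apparently raised those of Linx with Xite. It calls these differences rather close to noise in Chic1-4kbD and more pronounced in Chic1-14kbD. Both go in the direction that enlarges the 2 changes above. How much of them comes from the deletions was not tested. Per library, the level of Cdx4 minus that of Linx at the Xite side was on average -0.09 in 245kb-INV and -1.25 in the deletions, a difference of 1.16. The level of Cdx4 minus that of Chic1 was -0.83 and 0.37, a difference of -1.20. In both cases the 245kb-INV libraries and the deletions did not overlap, and both gave p = 0.133 (two-sided exact permutation test, 0.2 after adjustment over 12 comparisons). That is the smallest p that 2 libraries against 4 can give, so none of these 12 tests could pass.

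At the upstream flank, across the other breakpoint, the picture was not the same. There the 51 kb Linx interval changed in 245kb-INV by 1.39 ± 0.17 (SE, adjusted p = 0.000283, edgeR) and Chic1 by 0.42 ± 0.22 (SE, adjusted p = 0.578), beside 0.68 for Cdx4. The level of Cdx4 minus that of Linx was -0.77 and -1.67 in 245kb-INV and between -0.66 and -0.38 in the deletions, without overlap (difference -0.74). The level of Cdx4 minus that of Chic1 was -0.17 and -0.83 against -1.25 to 0.02, and these overlapped (difference 0.18, exact permutation p = 0.8). With the Xist-TAD, Cdx4 minus Linx was 0.55 higher in 245kb-INV than in the deletions and Cdx4 minus Chic1 was -0.60 relative to them, both without overlap.

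In Linx-51kb-INV, where the Linx interval is itself the inverted piece, Cdx4 minus Linx differed from the deletions by 1.53 at the Xite side and 0.83 in the Xist-TAD, both without overlap, and by -0.51 at the upstream flank (exact permutation p = 0.4). Cdx4 minus Chic1 differed by -1.03 at the upstream flank, without overlap, and by -0.22 at the Xite side and 0.07 in the Xist-TAD (exact permutation p = 0.8 and 0.667).

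Likeness to Cdx4 was described over the tiles of the inverted interval, by Pearson's r of the levels with partner tiles outside the interval, centred on the mean of the 4 alleles at each partner. The most like tile was the one 38.4 kb downstream, in Chic1 (r = 0.42 over 38 partner tiles and 4 alleles). Next were the tiles 38.4 kb upstream, in Linx (r = 0.21 over 40 partner tiles), and 96 kb upstream, also in Linx (r = 0.20 over 38 partner tiles). All tiles come from the same libraries and share their depth, and the values are low.

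Across the boundary, 1 primer pair decided the calls at a single tile. The tile 307.1 kb downstream, which holds Zcchc13, a zinc finger gene of the Xist-TAD, was higher with Cdx4 in Linx-51kb-INV than in the deletions (log2 change 1.69 ± 0.19 SE, adjusted p = 9.53e-05). The deletions were far apart there. The level was 2.06 and 2.46 in Linx-51kb-INV, 1.69 and 1.42 in Chic1-4kbD, -0.39 and -0.39 in Chic1-14kbD, and 1.15 and 0.90 in 245kb-INV. Against Chic1-4kbD alone no Cdx4 tile passed in Linx-51kb-INV. The Zcchc13 tile was the 1 tile lower in 245kb-INV than in Linx-51kb-INV, against 0.197% of all tile pairs (-1.24 ± 0.23 SE, adjusted p = 0.0339). No Cdx4 tile was higher there in the edgeR test, against 0.0911% of all tile pairs, and 2 were at an unadjusted p under 0.05. It was also the 1 Cdx4 tile that passed between the Chic1 deletions, where 2.07% of all tile pairs passed and 1.75% were lower in Chic1-14kbD (-1.95 ± 0.24 SE, adjusted p = 0.000232). The pair FOR 536 with REV 632 had 1819 and 1746 counts in 245kb-INV, 2487 and 3916 in Linx-51kb-INV, 1907 and 1275 in Chic1-4kbD, and 373 and 27 in Chic1-14kbD. It held between 78.7% and 91.0% of the counts of the Zcchc13 window in the first 6 libraries, and 30.8% and 35.5% in Chic1-14kbD.

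Without this pair none of the 3 calls remained at the tile, and the log2 changes were 0.69 (adjusted p = 0.415), -0.76 (adjusted p = 0.565) and 0.85 (adjusted p = 0.429), the last with its sign turned. The name prefixes of the Chic1-14kbD libraries differ from those of the other alleles. The labels do not say what a prefix marks, and if it is a batch, allele and batch cannot be told apart here. A second pair behaved in a similar way, FOR 581 with REV 535 at the Xite side. It held between 17.8% and 44.4% of the counts of that region in the first 6 libraries, and 4.51% and 1.22% in Chic1-14kbD.

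Of the other genes in reach, none passed in the edgeR test. The windows of Tsix, the antisense RNA of Xist, and of Jpx and Ftx, noncoding genes of the Xist-TAD, changed in 245kb-INV by -0.12, 0.35 and -0.10. Rlim, a ubiquitin ligase that activates Xist, gave -1.14 ± 0.35 in 245kb-INV, -1.01 ± 0.34 in Linx-51kb-INV and 1.28 ± 0.39 in Chic1-14kbD against Chic1-4kbD (SE, adjusted p = 0.166, 0.186 and 0.117). The last passed with DESeq2 (adjusted p = 0.0376). Its level with Cdx4 was 0.24 and 0.23 in the Chic1-14kbD libraries and between -1.73 and -0.79 in the other 6. To the left, 1700011M02Rik was at -2.11 and -2.85 in 245kb-INV and 0.85 and 0.46 in Linx-51kb-INV. The difference between the inversions, -3.11 ± 0.65 (SE), did not pass (adjusted p = 0.0559), and it rested on 5 pairs, 1 of which held between 31.3% and 100% of the counts.

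Between the Chic1 deletions, no region passed in the edgeR test, while 3 were at an unadjusted p under 0.05. With DESeq2 1 passed, the left part of Linx (adjusted p = 0.00332). Fragment totals, summed over all partners and added after the data had been seen, gave 1 difference. REV 533, with the Cdx4 transcription start, was higher in Chic1-14kbD than in Chic1-4kbD by a log2 change of 0.78 ± 0.16 (SE, adjusted p = 0.00781), where 16.5% of all 1009 fragments were called higher. Its share of the counts of all 646 Cdx4 pairs was 20.3% and 25.0% in Chic1-14kbD, 13.6% and 12.6% in Chic1-4kbD, and between 13.2% and 15.4% in the inversions. The call was lost without Chic1-4kbD replicate 1 (0.89, adjusted p = 0.0516) or 2 (0.68, adjusted p = 0.093). The other 4 Cdx4 fragments differed by -0.10 to 0.04 between the deletions. In the other 3 comparisons no Cdx4 fragment total passed in the edgeR test, while 4 were at an unadjusted p under 0.05. Of all fragments 3.27% were called higher and 2.58% lower in Linx-51kb-INV than in the deletions. Between the inversions 0.0991% were called higher and 0% lower in 245kb-INV than in Linx-51kb-INV. In 245kb-INV against the deletions 0% of all fragments were called in either direction, so the lack of a call there is not particular to Cdx4. REV 533 had the lowest p among the Cdx4 fragments in Linx-51kb-INV (-0.47 ± 0.14 SE, adjusted p = 0.0777). It passed there with DESeq2 (adjusted p = 0.0207) and without Chic1-14kbD replicate 1 (-0.57, adjusted p = 0.0122).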

How the data were processed

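The deposited counts, 1 whole number per pair of a forward and a reverse 5C primer, were made by the authors, who aligned reads with Bowtie2 (version not given in the sources used here) to all primer pairs; the submitters' notes give the build as mm9 (NCBIM37). Counts were used unnormalised. Primers whose total lay under 0.1 times or over 10 times the median total for forward or reverse primers were dropped, as were 8 fragments deleted or cut at a breakpoint in any allele. Edges of the 51 kb inversion and of the Chic1 deletions were read from the study's figures and are approximate; sequenced edges of Chic1-14kbD are given on another build and were not converted. Expected counts came from the mean count in 40 distance bins per library, with positions corrected per allele. Sums over tile pairs, regions and gene windows (gene with 5 kb on each side) were tested if their count averaged 50 or more, in 1 fit of all 8 libraries with edgeR 4.0.16 (R 4.3.3, glmQLFTest), the expected counts being the offset, and adjusted by the Benjamini-Hochberg method over 6614 features (threshold 0.05). DESeq2 1.42.0 was an alternative, and the code was tested on simulated data. There 200 of 6614 tile and region pairs were changed by a log2 of 1 in 245kb-INV. Of these edgeR recovered 28% with 2 false calls, and DESeq2 31.5% with 21 false calls. A missing call therefore does not show an unchanged contact. The edgeR p-values rest on the spread between the 2 libraries of an allele, estimated over all 4 alleles together and moderated across features. They therefore also depend on alleles outside a comparison. Named items were all regions and genes in reach and the called Cdx4 tiles. Members, lists and tests were chosen with earlier results of these data known.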

Additional observations from a re-analysis of the deposited data

Results flagged for a closer look

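The 245kb-INV and Linx-51kb-INV alleles, both set against the same Chic1 deletions, differed from each other in 4 Cdx4 features in the direct test (edgeR, log2 change of 245kb-INV against Linx-51kb-INV). These were the Tsx side at -0.79, the Tsx gene window at -1.18, the tile that holds Zcchc13 at -1.24 and the Zcchc13 gene window at -1.26. The adjusted p was 0.0452, 0.0335, 0.0339 and 0.0335. The features overlap in 2 pairs, so they amount to 2 places. For the Tsx gene window the call was lost without any 1 library of 245kb-INV, Linx-51kb-INV or Chic1-4kbD, with log2 changes of up to -1.39 in size and adjusted p between 0.0636 and 0.203. At Zcchc13 a single primer pair held most of the counts in 6 libraries, and without it the log2 change of the window was -0.85 (adjusted p = 0.538). The window and the tile also lost the call without 245kb-INV replicate 2 or any 1 library of Linx-51kb-INV or Chic1-4kbD, with adjusted p between 0.0699 and 0.245.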

How the results depend on the processing

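The lower contact of Cdx4 with the Tsx side in 245kb-INV than in the Chic1 deletions kept its call in all 22 alternatives, with -1.33 to -1.27 without 1 replicate. The cause of the changes below was not tested. The number of Cdx4 tiles called in 245kb-INV against the deletions was 3, and 6 with DESeq2 (2 to 3 without 1 replicate). In Linx-51kb-INV it was 4, against 2 without the top primer pair of each feature (an alternative chosen after seeing the data), 7 with DESeq2 and 0 against Chic1-4kbD alone (1 to 4 without 1 replicate). Between the inversions it was 1, against 0 with primer efficiency, capped pairs, gene fragments only, no top pair or only the compared alleles, 3 with edited fragments kept and 5 with DESeq2 (0 to 1 without 1 replicate). Between the deletions it was 1, against 2 with primer efficiency or edited fragments kept, 0 with capped pairs or no top pair, and 3 with DESeq2 (1 throughout without 1 replicate). The number of regions called in 245kb-INV was 2, against 1 with library size, gene fragments only, no top pair, only the compared alleles or Chic1-4kbD alone (1 to 2 without 1 replicate). In Linx-51kb-INV it was 2, against 1 with library size, primer efficiency, gene fragments only or Chic1-4kbD alone and 4 with DESeq2 (0 to 3). Between the inversions it was 1, against 0 with library size, gene fragments only, no top pair, TMM factors or only the compared alleles, 2 with edited fragments kept or a mean count of at least 10, and 3 with DESeq2 (0 to 2). Between the deletions it was 0, with 2 under primer efficiency and 1 under DESeq2 (0 to 1).

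The left part of Linx lost its call in 245kb-INV with library size (0.57), gene fragments only (0.57), no top pair (0.61), only the compared alleles (0.64) and Chic1-4kbD alone (0.31), with 0.51 to 0.75 without 1 replicate. In Linx-51kb-INV it lost it with library size (0.41), primer efficiency (0.58), gene fragments only (0.60) and Chic1-4kbD alone (0.39), with 0.65 to 0.80 without 1 replicate. The 51 kb interval of Linx lost it with library size (-0.59), reference positions (-0.32) and primer efficiency (-0.40), with -0.87 to -0.60 without 1 replicate. The Tsx side between the inversions lost it with library size (-0.54), gene fragments only (-0.82), no top pair (-0.81), TMM factors (-0.81) and only the compared alleles (-0.79), with -0.81 to -0.76 without 1 replicate. Without the top pair Zcchc13 turned its sign between the deletions (0.70 for the window, 0.85 for the tile). The flank ratio in 245kb-INV was 1.40 with library size and 1.41 with reference positions (0.16 to 1.25 without 1 replicate), and in Linx-51kb-INV 0.36 with capped pairs and 0.51 without the top pair (-0.73 to 0.75).

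No wild-type library was analysed here, each allele had 2 libraries, and Chic1-14kbD replicate 2 had 12877 Cdx4 counts against 46714 or more in the others. No paired analysis was possible because the replicate numbers were given in accession order and carry no pairing.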
